A study of Mus musculus with 18 samples.

Results

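The genes described here encode the receptor complex for bacterial lipopolysaccharide (LPS) and the first proteins it signals through: Tlr4, Cd14, Ly96, Tlr2, Myd88, Tirap, Ticam1, Ticam2, Irak2 and Irak3. They were taken by gene symbol, whatever their values, and all 10 had a row among the 21441 genes of each of the 2 tables of RNA-seq values. One table held RAW264.7 cells, a mouse macrophage line, and the other mouse liver, each with 3 Control, 3 LPS and 3 LPS+MIC-1 libraries. MIC-1 is moringa isothiocyanate-1, a compound from Moringa seeds. The liver came from wild type C57BL/6 mice, male per the study's methods and of an age not given in the sources used here. Control mice were given vehicle and injected with saline, LPS mice were injected with 10 mg/kg LPS, and LPS+MIC-1 mice received 80 mg/kg MIC-1 by oral gavage, in 10% DMSO, for 3 days before the same LPS injection. Livers were taken 16 hours after injection. The methods describe more mice per group than there are libraries, while the study's results state that the sequenced liver tissue came from 3 mice of each group. Nothing in the labels ties a library to a mouse. For the macrophages, the labels repeat the mouse strain, genotype and doses, while the series design gives 10 uM MIC-1 for cells and liver alike. The LPS dose and the time of the cell treatment are not given in the sources used here. The tables were normalized separately, so levels in cells and liver are set side by side and not tested against each other.

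LPS is a glycolipid that coats Gram-negative bacteria. The anchored co-receptor Cd14 passes it to the pair of Tlr4 and Ly96 (also called MD-2), and the activated receptor signals either from the cell surface through the adaptors Tirap and Myd88 or, after uptake, through Ticam2 (TRAM) and Ticam1 (TRIF). Tlr2 recognises bacterial lipoproteins and also uses Tirap and Myd88. Irak2 is a kinase of the complex that forms on Myd88 and carries the signal on, whereas Irak3 (IRAK-M) is a relative without strong kinase activity that holds that complex back. In liver these genes are best known from Kupffer cells, the resident macrophages, but hepatocytes and incoming leukocytes express several of them.

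Libraries are numbered by their order in each table, because the columns carry no replicate number, and several libraries stood apart from their groups. In macrophages, LPS library 2 lay nearest to Control library 2, with a median absolute difference of 0.07 (log2, over 9905 genes), against 0.69 and 0.70 to LPS libraries 1 and 3. Control library 2 itself lay 0.16 from each of Control libraries 1 and 3. Libraries 1 and 3 of each macrophage group lay within 0.07 to 0.09 of each other. In liver, LPS library 2 and LPS+MIC-1 library 2 were nearest to each other (0.31) rather than to their own groups. Liver Control library 1 lay 0.43 and 0.48 from Control libraries 2 and 3, which were 0.20 from each other. All libraries were kept under their labels. The study's methods leave out a macrophage LPS library and do not say which. The members' macrophage values are given with all 9 libraries and without LPS library 2. That library was picked from its values, because they lay near Control, and neither the labels nor the study name it. Every p-value and call without LPS library 2 is conditional on this pick. The LPS group is then libraries 1 and 3, which lay 0.09 from each other. The summed FPKM of macrophage LPS libraries 1 and 3 was 1137533 and 1132904, and that of the other macrophage libraries 557136 to 652486. With all libraries rescaled to the same sum, the median log2 fold change of all macrophage genes was -0.65 in LPS against Control, 0.44 in LPS+MIC-1 against LPS and -0.21 in LPS+MIC-1 against Control, against -0.03, -0.01 and -0.04 as deposited. In liver these medians were -0.18, -0.26 and -0.43 under that scaling, against 0.15, -0.01 and 0.15 as deposited. Of the macrophage markers, Lyz2 stood at 8726 to 10746 FPKM in the RAW264.7 libraries, and the 5 hepatocyte markers summed to 2.58 to 13.5 FPKM. Other macrophage markers moved with the groups: Csf1r was at 406 to 423 FPKM in Control, 109, 409 and 108 FPKM in LPS and 160.3 to 245 FPKM in LPS+MIC-1, and Emr1 was at 37.2 to 42.3, 278, 41.2 and 290.0, and 115 to 198 FPKM. In liver, the hepatocyte gene Alb stood at 13740 to 35991 FPKM, with the highest value in Control library 1.

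To show the regulatory sequence beside the values, the 250 bases before the start site were read from RefSeq (GRCm38.p6) for the members the table holds, 8 windows of 6 genes (Tlr2, Myd88, Tirap, Ticam1, Irak2 and Irak3), and placed in mm9, the build of the files, by exact match. Of these, 1 window of Irak2 and 1 of Tirap overlap no annotated exon in mm9, and both are printed 5′ to 3′ on the strand of the gene, for a member that was higher and a member that was lower with LPS in macrophages once LPS library 2 was left out. Capitals mark the antioxidant response element, the sequence bound by Nrf2.
Irak2, chr6:113588211-113588460, plus strand: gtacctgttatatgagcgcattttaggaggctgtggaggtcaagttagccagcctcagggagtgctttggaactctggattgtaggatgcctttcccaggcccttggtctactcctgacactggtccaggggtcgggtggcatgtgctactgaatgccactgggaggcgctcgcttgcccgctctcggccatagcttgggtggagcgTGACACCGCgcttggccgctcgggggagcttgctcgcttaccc
Tirap, chr9:35007491-35007740, minus strand: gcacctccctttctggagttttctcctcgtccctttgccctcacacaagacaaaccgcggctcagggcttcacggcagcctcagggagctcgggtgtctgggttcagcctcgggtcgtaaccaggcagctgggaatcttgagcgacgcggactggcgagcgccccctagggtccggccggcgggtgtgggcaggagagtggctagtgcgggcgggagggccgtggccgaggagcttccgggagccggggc
The Irak2 window held TGACACCGC, a match to the antioxidant response element (TGACNNNGC), starting at base -43 from the start site. These letters were found on either strand in 10.2% of all 32851 windows of this length. The Myd88 window held GAAAGCGAAA at base -40, a match to the interferon-stimulated response element (GAAA, any 2 bases, GAAA), found in 2.98% of windows. That window overlaps an annotated Myd88 exon in mm9, and base -40 is counted from the RefSeq start site. No window of the 6 genes held the AP-1 letters TGANTCA (6.75%, which can lie within an antioxidant response element). None held GGG, any 2 bases, TTTCC, which is only 1 form of the NF-κB site (1.41% of all windows). Other forms were not sought, such as the GGGGAATTCC in the Tlr2 window, so a lack of NF-κB sites cannot be read from this. A match is a stretch of letters, and no binding was measured.

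In Control macrophages, Cd14 was by far the most abundant member, at 1512 ± 63.5 FPKM (SD, n = 3). Myd88 (85.8 ± 8.41), Tlr2 (57.0 ± 1.27) and Ly96 (20.4 ± 2.61 FPKM) followed, each range above the next. Irak2, Ticam1 and Tlr4 overlapped in pairs between 9.34 and 14.7 FPKM, and Ticam2, Irak3 and Tirap lay below them, down to 3.60 ± 0.07 FPKM for Tirap. In Control liver the order was different. Tirap led at 21.7 ± 1.94 FPKM, then came Ly96 at 12.7 ± 0.40, and Irak2, Myd88 and Cd14 overlapped with their neighbours between 3.49 and 12.0 FPKM. Ticam1 stood at 3.30 ± 1.05 FPKM, and Tlr4, Tlr2, Ticam2 and Irak3 were all below 1 FPKM with overlapping ranges. The depth behind the liver values was small for some of these, since the authors' mean normalized count over the 9 libraries was 9.08 for Ticam2, 28.4 for Tlr4 and 29.8 for Irak3, against 3277 for Cd14.

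In macrophages the members moved in different directions. When LPS library 2 was left out, Cd14, Ly96, Ticam1, Ticam2, Irak2 and Irak3 were higher with LPS than in Control, and Tlr4, Tlr2, Myd88 and Tirap were lower. Against LPS alone, LPS+MIC-1 then had more Tlr4, Cd14, Tlr2, Myd88, Tirap and Irak3 and less Ly96, Ticam1 and Irak2. Only part of this passed with all 9 libraries. In LPS against Control, 0 of 10 members were called at an adjusted p below 0.05 (limma, Benjamini-Hochberg adjustment over all genes), where 0% of 9905 genes were called and 4928 had an unadjusted p below 0.05. Without LPS library 2, all 10 were called, 6 higher and 4 lower, where 75.2% of genes were called, 36.9% higher and 38.2% lower. Their ranges did not overlap for 3 of 10 members with all libraries, where this held for 33.3% of genes. For LPS+MIC-1 against LPS, 3 of 10 members were called, all higher, where 21.6% of genes were called, 10.2% higher and 11.4% lower. These were 1011 higher and 1130 lower genes, or 1228 and 354 with the same-sum scaling. Without LPS library 2 it was 6 members higher and 3 lower, where 68.0% of genes were called, 34.0% higher and 34.1% lower. The ranges did not overlap for 4 of 10 members with all libraries (36.1% of genes). Against Control, LPS+MIC-1 had 3 of 10 members called, all higher, where 24.8% of genes were called, 11.8% higher and 13.0% lower. Leaving out LPS library 2 gave 7 higher and 2 lower members, where 60.3% of genes were called, 28.1% higher and 32.2% lower. The ranges did not overlap for 9 of 10 members (66.4% of genes). The median log2 fold changes of the 10 members were 0.27, 0.40 and 0.74 in these comparisons, beside -0.03, -0.01 and -0.04 over all genes. The comparisons share their libraries, so their values are not independent of each other. With 3 libraries against 3, an exact permutation test of a single gene cannot give a two-sided p below 0.1, and no p of that test is used as a call here.

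**Figure D1:**
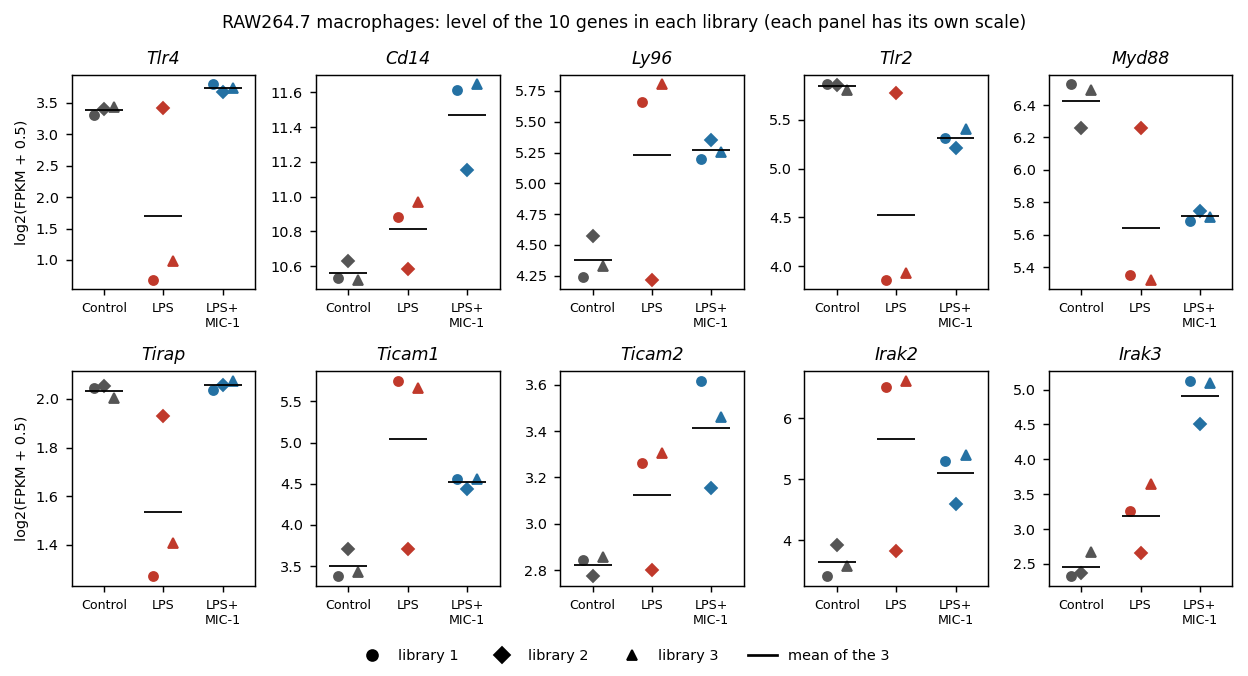
Level of each gene in the 9 RAW264.7 libraries, as log2(FPKM + 0.5), with 1 point for each library (circle, library 1; diamond, library 2; triangle, library 3) and a line at the mean of the 3. In each panel LPS library 2 lies nearer to the Control libraries than LPS libraries 1 and 3 do, and libraries 1 and 3 of a group lie close together in most panels.

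Among the receptors, Tlr4 (mm9, chr4:66488618-66591318, plus strand), the signalling receptor for LPS, stood at 9.34, 10.1 and 10.3 FPKM in the Control macrophage libraries, at 1.11, 10.1 and 1.48 FPKM in the LPS libraries and at 13.4, 12.2 and 12.8 FPKM in the LPS+MIC-1 libraries. LPS libraries 1 and 3 were thus far below every other library, and all LPS+MIC-1 libraries were above all others. Tlr4 rose in LPS+MIC-1 against LPS by 2.04 ± 0.61 (log2, SE, adjusted p = 0.0489, limma). That call was lost without the filter on low values (adjusted p = 0.0746) and with libraries rescaled to the same sum (adjusted p = 0.0691). It was lost as well in a fit of only the groups compared (adjusted p = 0.135, limma). Without LPS library 2, Tlr4 fell by 2.54 on the log2 scale (SE 0.11, adjusted p = 1.38e-06, limma) in LPS against Control, to a mean of 1.29 FPKM. It was then higher by 2.90 ± 0.11 (adjusted p = 1.98e-06) in LPS+MIC-1 against LPS.

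Cd14, which hands LPS to the receptor, stood at 1481, 1585 and 1469.5 FPKM in Control, 1891, 1533 and 2006 FPKM in LPS and 3136, 2273 and 3207 FPKM in LPS+MIC-1 macrophages. Every LPS+MIC-1 library was above every other library. Cd14 rose in LPS+MIC-1 against LPS by 0.66 ± 0.19 (log2, adjusted p = 0.041, limma) and against Control by 0.91 ± 0.19 (adjusted p = 0.0121, limma). The first of these calls was lost without the filter on low values (adjusted p = 0.111) and in a fit of only the groups compared (adjusted p = 0.153), and it held without LPS library 2 (0.54 ± 0.14, adjusted p = 0.0113). Cd14 was not called in LPS against Control with all 9 libraries and was higher by 0.37 ± 0.14 (adjusted p = 0.0492, limma) without LPS library 2. That last direction depended on the scaling, since with all 9 libraries it was 0.25 ± 0.19 as deposited and -0.43 ± 0.19 with libraries rescaled to the same sum, where neither value passed.

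Ly96 (chr1:16678537-16699686, plus strand), the small protein that holds LPS in the receptor complex, stood at 18.4, 23.4 and 19.6 FPKM in Control, 50.2, 18.1 and 55.4 FPKM in LPS and 36.1, 40.3 and 37.7 FPKM in LPS+MIC-1 macrophages. Its LPS+MIC-1 libraries were thus above Control and below LPS libraries 1 and 3. With all 9 libraries no comparison of Ly96 passed as deposited (adjusted p = 0.104, 0.95 and 0.119), and with the same-sum scaling Ly96 was higher in LPS+MIC-1 against Control (0.70 ± 0.20, adjusted p = 0.0478, limma). Without LPS library 2 it was higher in LPS against Control by 1.35 ± 0.11 (log2, adjusted p = 1.83e-05, limma) and lower in LPS+MIC-1 against LPS by 0.47 (a log2 fold change of -0.47 ± 0.11, adjusted p = 0.00649).

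Tlr2 (chr3:83640195-83645689, minus strand), the lipoprotein receptor, stood at 57.8, 57.6 and 55.5 FPKM in Control, 14.0, 54.2 and 14.8 FPKM in LPS and 39.2, 36.5 and 42.1 FPKM in LPS+MIC-1 macrophages. The LPS+MIC-1 libraries lay between LPS libraries 1 and 3 and the Control libraries, with no overlap. In the fit without LPS library 2 the log2 fold changes of Tlr2 were -1.95 ± 0.07 in LPS against Control (adjusted p = 1.08e-06, limma), 1.41 ± 0.07 in LPS+MIC-1 against LPS (adjusted p = 5.38e-06) and -0.53 ± 0.07 in LPS+MIC-1 against Control (adjusted p = 0.000323). With all 9 libraries, none of these passed (adjusted p = 0.0777, 0.233 and 0.415).

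Without LPS library 2, the adaptors Myd88 and Tirap were lower and Ticam1 and Ticam2 higher in LPS than in Control macrophages. With all 9 libraries none was called there, and the Ticam2 value was 0.30 as deposited and -0.34 with the same-sum scaling. Myd88 (chr9:119245052-119250529, minus strand), the adaptor of nearly all Toll-like receptors, stood at 91.8, 76.2 and 89.4 FPKM in Control, 40.3, 75.9 and 39.6 FPKM in LPS and 51.0, 53.3 and 51.9 FPKM in LPS+MIC-1 macrophages, so all LPS and LPS+MIC-1 libraries were below all Control libraries. Tirap (chr9:34994370-35007490, minus strand), which brings Myd88 to the membrane, stood at 3.63, 3.65 and 3.51 FPKM in Control, 1.92, 3.31 and 2.16 FPKM in LPS and 3.61, 3.67 and 3.71 FPKM in LPS+MIC-1 macrophages. Its LPS libraries were below all others, and its LPS+MIC-1 libraries overlapped with Control. Without LPS library 2, the log2 fold changes in LPS against Control were -1.09 ± 0.09 for Myd88 (adjusted p = 1.64e-05, limma) and -0.69 ± 0.09 for Tirap (adjusted p = 0.000284). They were 0.38 ± 0.09 for Myd88 (adjusted p = 0.00556) and 0.72 ± 0.09 for Tirap (adjusted p = 0.000324) in LPS+MIC-1 against LPS. With all 9 libraries neither gene passed, and the Myd88 value in LPS+MIC-1 against LPS was 0.07 ± 0.24.

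Ticam1 (chr17:56408742-56416209, minus strand), the adaptor of the interferon arm, stood at 9.89, 12.6 and 10.3 FPKM in Control, 53.4, 12.5 and 50.1 FPKM in LPS and 23.0, 21.1 and 23.1 FPKM in LPS+MIC-1 macrophages. The LPS+MIC-1 libraries again lay between Control and LPS libraries 1 and 3. The log2 fold changes of Ticam1 without LPS library 2 were 2.20 ± 0.11 in LPS against Control (adjusted p = 2.34e-06, limma) and -1.19 ± 0.11 in LPS+MIC-1 against LPS (adjusted p = 4.95e-05). With all 9 libraries these were 1.53 ± 0.48 (adjusted p = 0.0777) and -0.52 ± 0.48 (adjusted p = 0.449), neither of which passed. Ticam2, the bridge between Tlr4 and Ticam1, stood at 6.67, 6.34 and 6.74 FPKM in Control, 9.11, 6.47 and 9.37 FPKM in LPS and 11.8, 8.41 and 10.5 FPKM in LPS+MIC-1 macrophages. Ticam2 rose in LPS+MIC-1 against Control by 0.59 ± 0.18 (log2, adjusted p = 0.0451, limma, all 9 libraries), a call that was lost without the filter on low values (adjusted p = 0.0684) and with the same-sum scaling (adjusted p = 0.181). Its difference between LPS+MIC-1 and LPS did not pass with 9 libraries as deposited, with a 95% confidence interval of -0.12 to 0.70, or without LPS library 2, with an interval of -0.17 to 0.43. It passed with the same-sum scaling (0.76 ± 0.19, adjusted p = 0.0346, limma) and with libraries 1 and 3 only (adjusted p = 0.0193). Ticam2 overlaps Tmed7 on the same strand in the mm9 annotation, so reads could be shared between the annotated genes.

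Of the kinase family members, Irak2 (chr6:113588461-113645003, plus strand), which passes the signal on, stood at 10.2, 14.7 and 11.5 FPKM in Control, 90.9, 13.7 and 97.4 FPKM in LPS and 38.9, 23.7 and 41.6 FPKM in LPS+MIC-1 macrophages. Irak3 (chr10:119578704-119639186, minus strand), the inhibitory member, stood at 4.52, 4.66 and 5.90 FPKM in Control, 9.11, 5.78 and 12.1 FPKM in LPS and 34.4, 22.2 and 33.7 FPKM in LPS+MIC-1 macrophages. For Irak2 the LPS+MIC-1 libraries lay between Control and LPS libraries 1 and 3, whereas for Irak3 they lay above all others. Irak3 rose in LPS+MIC-1 against LPS by 1.72 ± 0.28 (log2, adjusted p = 0.00576, limma, all 9 libraries) and against Control by 2.45 ± 0.28 (adjusted p = 0.00123), a 5.99-fold ratio of mean FPKM. Both Irak3 calls held without LPS library 2 (adjusted p = 0.00064 and 3.61e-05), without the filter and with the same-sum scaling. With LPS library 2 left out, Irak2 was higher in LPS against Control by 2.92 ± 0.25 (adjusted p = 2.16e-05, limma), a 7.76-fold ratio of mean FPKM, and its log2 fold change in LPS+MIC-1 against LPS was -1.47 ± 0.25 (adjusted p = 0.00117). With all 9 libraries these Irak2 values were 2.01 ± 0.68 (adjusted p = 0.0777) and -0.55 ± 0.68 (adjusted p = 0.574), and neither passed. Irak3 was likewise higher in LPS against Control without LPS library 2 (1.00 ± 0.22, adjusted p = 0.00353), and at 0.73 ± 0.28 (adjusted p = 0.0794) with all 9 it did not pass. Irak3 overlaps Tmbim4, which lies on the other strand, and the strand setting of the counting is not given in the sources used here.

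**Figure D2:**
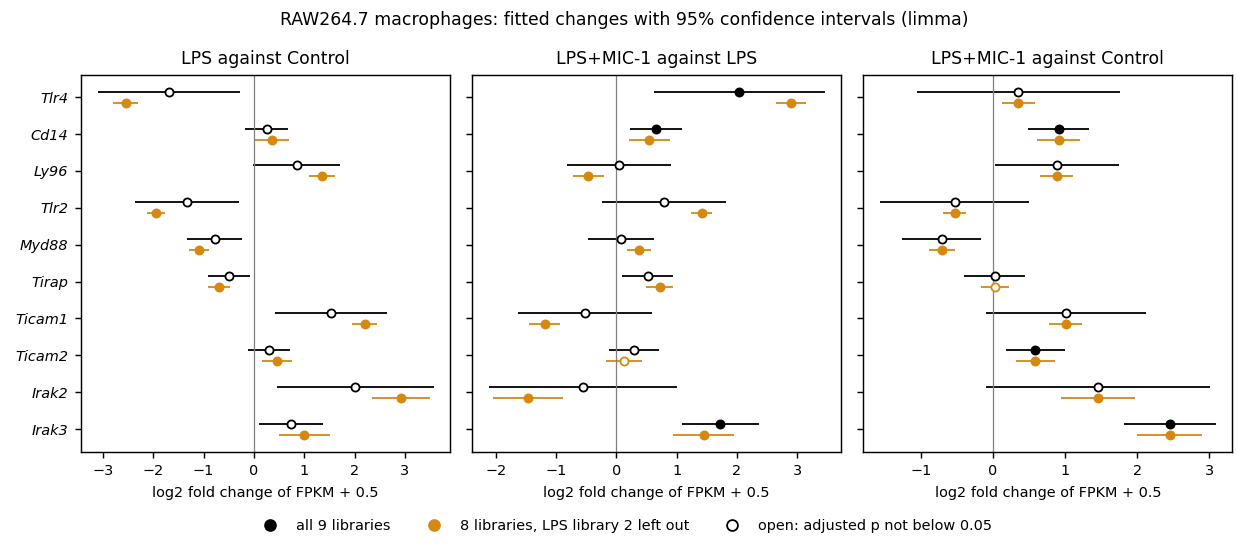
Log2 fold change of FPKM + 0.5 for each gene in RAW264.7 cells with its 95% confidence interval from limma, for the 3 comparisons, from all 9 libraries (black) and without LPS library 2 (orange). Open points had an adjusted p that was not below 0.05, which holds for all 10 black points in LPS against Control.

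Because libraries 1 and 3 of each macrophage group were so close, the fit was also run with them averaged as 1 sample, a setting chosen after seeing the data. In that fit 0 of 10 members and 0 of 9905 genes were called in each of the 3 comparisons, with 76, 1345 and 1708 genes at an unadjusted p below 0.05. Nothing in the labels says that the libraries came from separate cultures, so the p-values measure the spread between these libraries, which may be technical. Of the 5 Kupffer cell markers, Clec4f, Timd4, Marco and Vsig4 were at or below 0.08 FPKM in every library, and the list summed to 4.51 to 5.46 FPKM in Control, 4.04 to 4.86 in LPS and 0.80 to 1.43 in LPS+MIC-1 through Cd5l. Of the neutrophil list, S100a8 was at 1.46 to 2.40 FPKM in Control, 29.7, 3.56 and 39.2 FPKM in LPS and 651 to 718 FPKM in LPS+MIC-1. Mmp8 was at 0.09 to 0.16, 1.23, 0.20 and 2.13, and 21.4 to 35.7 FPKM. Both were highest in LPS+MIC-1, as Cd14 and Irak3 were. The rest of the list stayed low in every library. Cxcr2 was at 0.71 to 1.93 FPKM and Csf3r at 0.10 to 1.75 FPKM. S100a9 was at or below 0.48 FPKM, and Retnlg and Ngp were at or near 0. The part of these in the results was not tested. A list of 8 LPS response genes (Tnf, Il1b, Cxcl2, Nfkbiz, Ccl5, Cxcl10, Ifit1 and Irg1) summed to 483 to 1033 FPKM in Control, to 1038 FPKM in LPS library 2 against 28268 FPKM in the highest LPS library, and to 7590 to 9327 FPKM in LPS+MIC-1 macrophages. Ccl5 made up most of the sum in LPS libraries 1 and 3 (24673 and 25371 FPKM, against 219 to 464 FPKM in LPS+MIC-1), whereas Tnf, Il1b, Cxcl2, Nfkbiz, Irg1 and Ifit1 took their highest value in an LPS+MIC-1 library. Ifit1 was at 24.5 to 33.3 FPKM in Control, 24.9, 33.4 and 24.2 FPKM in LPS and 79.6, 26.9 and 80.0 FPKM in LPS+MIC-1. Cxcl10 went the other way, at 64.3 to 70.1 FPKM in Control, 25.1, 71.6 and 25.7 FPKM in LPS and 7.33 to 11.0 FPKM in LPS+MIC-1. The median log2 difference of the 8 genes from the Control mean was 1.69, 0.65 and 1.69 in LPS and 2.45, 1.67 and 2.44 in LPS+MIC-1.

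The ratio of the RNA of 2 members can be read within a library, free of the scaling. In macrophages, Cd14 stood at 159, 157 and 142 times Tlr4 in Control, 1705, 151 and 1358 times in LPS and 235, 186 and 251 times in LPS+MIC-1. Ly96 stood at 1.97, 2.31 and 1.90 times Tlr4 in Control, 45.2, 1.79 and 37.5 times in LPS and 2.70, 3.30 and 2.95 times in LPS+MIC-1. For both pairs the LPS+MIC-1 libraries were above all Control libraries and below LPS libraries 1 and 3, with LPS library 2 among or below the Control libraries. The ratio of the inhibitory Irak3 to Irak2 was 0.44, 0.32 and 0.51 in Control, 0.10, 0.42 and 0.12 in LPS and 0.89, 0.94 and 0.81 in LPS+MIC-1. It was thus higher in every LPS+MIC-1 library than in any other macrophage library. In liver, where Irak3 was below the filter, this was not so. The ratio there was 0.04, 0 and 0 in Control, 0.39, 0.02 and 0.28 in LPS and 0.15, 0 and 0 in LPS+MIC-1, with overlap in all comparisons. These ratios are of FPKM, which is per length of transcript, and are given as a description.

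**Figure D3:**
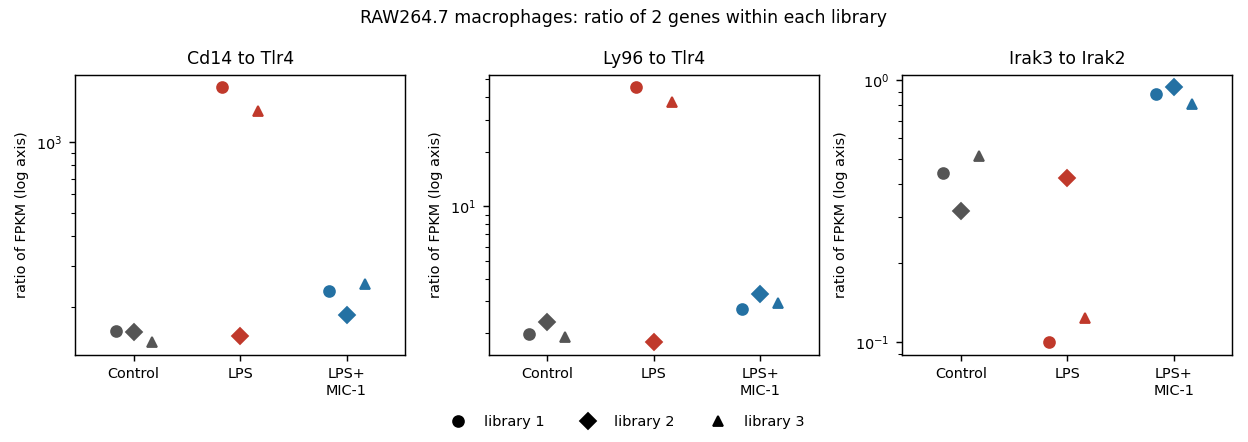
Ratio of the FPKM of 2 genes within each RAW264.7 library, on a log axis, with 1 point for each library. The ratios to Tlr4 are highest in LPS libraries 1 and 3, and the ratio of Irak3 to Irak2 is highest in the LPS+MIC-1 libraries (0.81 to 0.94).

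In liver 16 hours after injection, the receptors Cd14 and Tlr2 and the adaptors Myd88 and Ticam1 rose with LPS and Tirap fell, and no member passed the test for LPS+MIC-1 against LPS. Of the 10 members, 7 passed the filter of a mean above 1 FPKM, Tlr2 only through its LPS and LPS+MIC-1 libraries. In LPS against Control, 4 of these rose and 1 fell, and for these 5 the ranges did not overlap (45.0% of genes). Of 10147 genes 34.7% were called, 19.2% higher and 15.5% lower, which is 1947 higher and 1573 lower, or 1119 higher and 2473 lower with the same-sum scaling. Against Control, 4 rose and 2 fell in LPS+MIC-1 livers, and for these 6 the ranges did not overlap (54.6% of genes). Of all genes 36.4% were called, 20.1% higher and 16.3% lower, which is 2038 higher and 1654 lower, or 733 higher and 3443 lower with the same-sum scaling. Between LPS+MIC-1 and LPS, 0 of 7 were called and 0% of genes, with 364 genes at an unadjusted p below 0.05 (limma), and the ranges did not overlap for 1 of 7 members (9.75% of genes). Leaving out LPS library 2 and LPS+MIC-1 library 2, a choice made after seeing the data, 1 of 7 was called, where 3.68% of genes were. The median log2 fold changes of the 7 members were 1.43, 1.28 and -0.21 in LPS against Control, LPS+MIC-1 against Control and LPS+MIC-1 against LPS, beside 0.15, 0.15 and -0.01 over all genes.

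**Figure D4:**
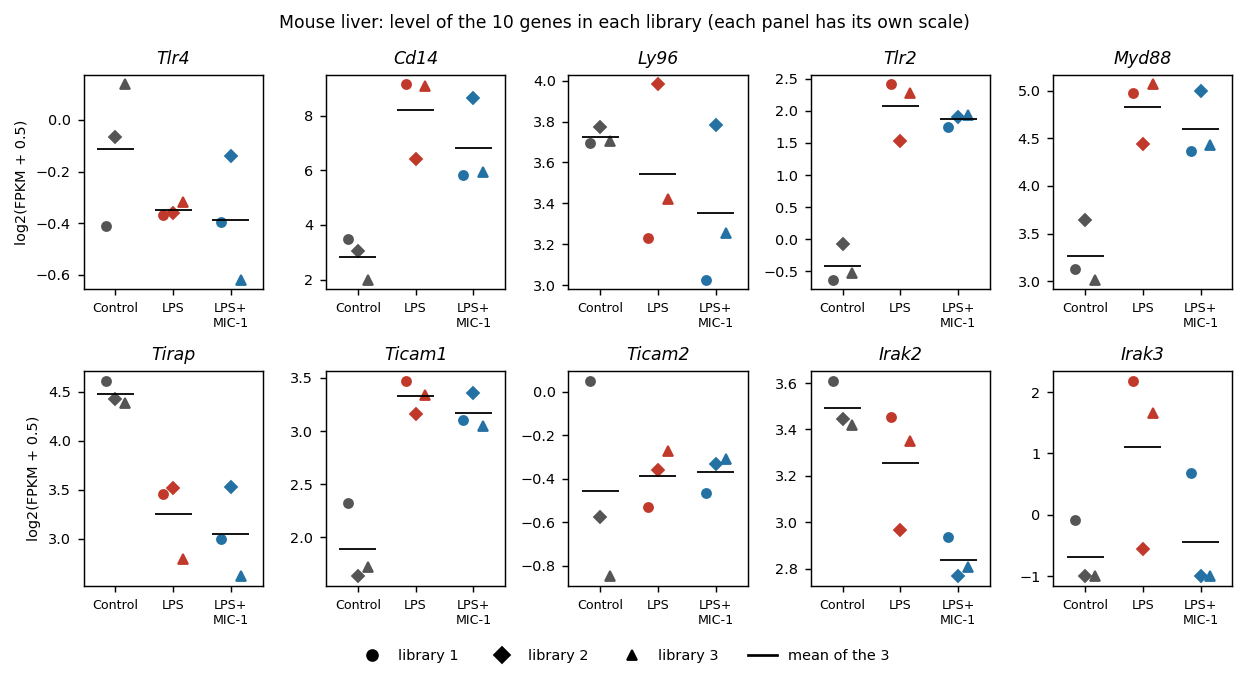
Level of each gene in the 9 liver libraries, as log2(FPKM + 0.5), with 1 point for each library (circle, library 1; diamond, library 2; triangle, library 3) and a line at the mean of the 3. For Cd14, LPS library 2 (84.2 FPKM) lies near LPS+MIC-1 libraries 1 and 3, and LPS+MIC-1 library 2 (407 FPKM) near LPS libraries 1 and 3.

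Cd14 had the largest log2 fold change of the 7 members tested in liver in LPS against Control. It stood at 10.8, 7.70 and 3.49 FPKM in Control, 569, 84.2 and 552 FPKM in LPS and 56.7, 407 and 61.4 FPKM in LPS+MIC-1 livers, so every LPS and LPS+MIC-1 library was above every Control library. Cd14 rose by 5.38 ± 0.95 (log2, adjusted p = 0.00578, limma) in LPS against Control, a 54.7-fold ratio of mean FPKM, and by 3.98 ± 0.95 (adjusted p = 0.0139) in LPS+MIC-1 against Control. Its log2 fold change in LPS+MIC-1 against LPS was -1.40 ± 0.95 (adjusted p = 0.997), with a 95% confidence interval of -3.57 to 0.76, since library 2 of each group took a value near those of the other group. Without both of these libraries it was -3.24 ± 0.46 (adjusted p = 0.0252, limma), the only member called there. Without only LPS library 2 or only LPS+MIC-1 library 2 no member was called in this comparison. Of the 4 monocyte genes listed, Ly6c2 was at 0.76, 0 and 0 FPKM in Control. It was at 13.9, 0 and 12.8 FPKM in LPS and 9.70, 0 and 11.8 FPKM in LPS+MIC-1 livers. Ly6c2 was thus at 0 in library 2 of both groups, unlike Cd14, which was high in LPS+MIC-1 library 2. The other monocyte genes, F10, Ccr2 and Chi3l3, were above 0 in every LPS and LPS+MIC-1 library. Chi3l3 was at 19.3, 5.63 and 23.8 FPKM in LPS and 8.37, 10.5 and 9.47 FPKM in LPS+MIC-1 livers. Like Cd14, it was lowest in library 2 of LPS and highest in library 2 of LPS+MIC-1. F10 and Ccr2 went the other way, with library 2 the highest in LPS and the lowest in LPS+MIC-1. The part of monocytes in the Cd14 values was not tested.

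Tlr2 stood at 0.14, 0.45 and 0.19 FPKM in Control, 4.84, 2.39 and 4.37 FPKM in LPS and 2.88, 3.25 and 3.33 FPKM in LPS+MIC-1 livers. It rose by 2.49 ± 0.29 (log2, adjusted p = 0.0012, limma) in LPS against Control and by 2.28 ± 0.29 (adjusted p = 0.00165) in LPS+MIC-1 against Control, without overlap in either. It passed the filter only through the groups in which it was high, and in a fit of all genes without the filter the adjusted p were 0.00255 and 0.00321. Ly96 stood at 12.5, 13.2 and 12.5 FPKM in Control, 8.89, 15.3 and 10.2 FPKM in LPS and 7.65, 13.2 and 9.05 FPKM in LPS+MIC-1 livers, and no comparison passed. With the same-sum scaling Ly96 was lower in LPS+MIC-1 against Control (log2 fold change -0.999 ± 0.27, adjusted p = 0.0173, limma), and likewise without both libraries 2 (-0.59 ± 0.14, adjusted p = 0.0178). Tlr4 was at 0.25, 0.45 and 0.60 FPKM in Control, 0.28, 0.28 and 0.30 FPKM in LPS and 0.26, 0.41 and 0.15 FPKM in LPS+MIC-1 livers, and its ranges overlapped in all comparisons. Tlr4 was below the filter. In a fit without the filter its log2 fold changes were between -0.27 and -0.04, and none passed (limma).

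Of the adaptors in liver, Myd88 stood at 8.23, 12.0 and 7.59 FPKM in Control, 31.0, 21.2 and 33.0 FPKM in LPS and 20.1, 31.3 and 21.0 FPKM in LPS+MIC-1 livers. Ticam1 stood at 4.51, 2.60 and 2.80 FPKM in Control, 10.6, 8.45 and 9.65 FPKM in LPS and 8.09, 9.75 and 7.78 FPKM in LPS+MIC-1 livers. Every LPS and LPS+MIC-1 library was above every Control library for both, and as for Cd14, LPS library 2 was the lowest and LPS+MIC-1 library 2 the highest of its group. The log2 fold changes in LPS against Control were 1.57 ± 0.27 for Myd88 (adjusted p = 0.00535, limma) and 1.43 ± 0.22 for Ticam1 (adjusted p = 0.00376). Against Control they were in LPS+MIC-1 livers 1.33 ± 0.27 for Myd88 (adjusted p = 0.00763) and 1.28 ± 0.22 for Ticam1 (adjusted p = 0.00464), of which that for Myd88 was lost with the same-sum scaling (0.70 ± 0.30, adjusted p = 0.086). Myd88 overlaps Acaa1a, which lies on the other strand and is a liver gene of peroxisomal fat breakdown.

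Tirap, the most abundant member in Control liver, went the other way. It stood at 23.9, 20.9 and 20.3 FPKM in Control, 10.5, 11.0 and 6.41 FPKM in LPS and 7.49, 11.0 and 5.64 FPKM in LPS+MIC-1 livers, with no overlap between Control and the others. Tirap fell by 1.22 on the log2 scale (SE 0.28, adjusted p = 0.0135, limma) in LPS against Control and by 1.42 (SE 0.28, adjusted p = 0.00723) in LPS+MIC-1 against Control. Ticam2 was between 0.06 and 0.54 FPKM in all liver libraries, below the filter, with overlapping ranges.

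Irak2 stood at 11.7, 10.4 and 10.2 FPKM in Control, 10.4, 7.32 and 9.69 FPKM in LPS and 7.16, 6.31 and 6.51 FPKM in LPS+MIC-1 livers. The LPS+MIC-1 libraries were below all other liver libraries, by the least against LPS library 2. Irak2 fell in LPS+MIC-1 against Control by 0.65 on the log2 scale (SE 0.17, adjusted p = 0.021, limma). In LPS+MIC-1 against LPS its log2 fold change was -0.42 ± 0.17 (adjusted p = 0.997), with a 95% confidence interval of -0.82 to -0.02 before adjustment. In LPS against Control, Irak2 was not called as deposited (-0.24 ± 0.17, adjusted p = 0.309) and was called as lower with the same-sum scaling (-0.59 ± 0.19, adjusted p = 0.0454). Irak3 was below the filter. Its values were 0.44, 0 and 0 FPKM in Control, 4.05, 0.18 and 2.67 FPKM in LPS and 1.11, 0 and 0 FPKM in LPS+MIC-1 livers, with overlap in all comparisons and no call in a fit without the filter (limma).

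**Figure D5:**
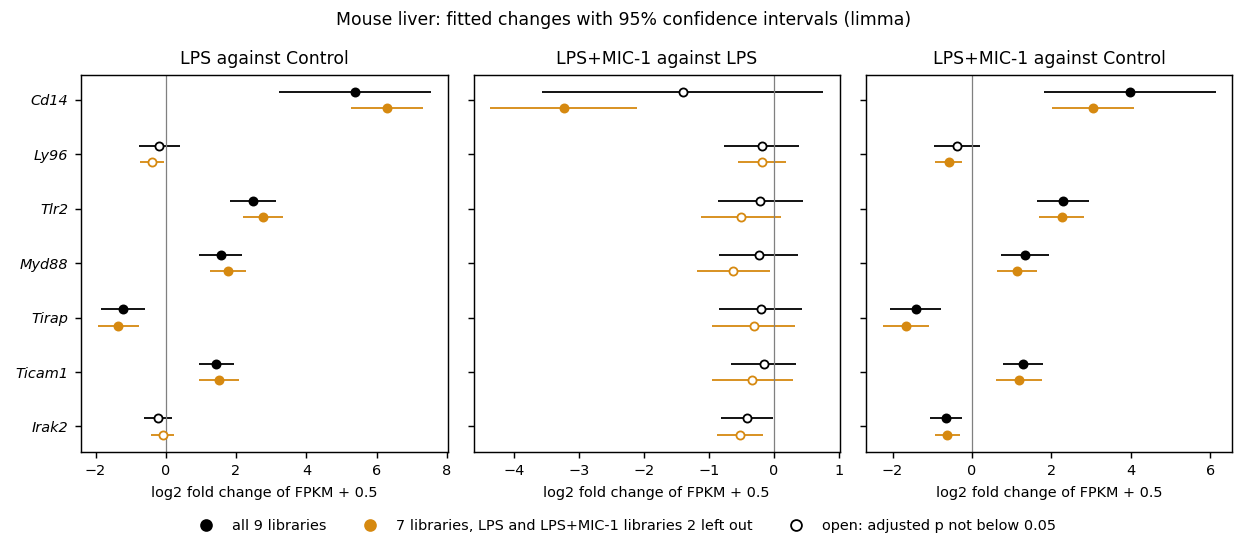
Log2 fold change of FPKM + 0.5 for the 7 genes that passed the filter in liver, with its 95% confidence interval from limma, from all 9 libraries (black) and without LPS library 2 and LPS+MIC-1 library 2 (orange). Open points had an adjusted p that was not below 0.05; in LPS+MIC-1 against LPS only the orange point of Cd14 is filled.

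Liver is a mixture, and fewer cells of a type and less RNA per cell cannot be told apart in these values. Several neutrophil markers were, like Cd14, Tlr2 and Myd88, above every Control library in each LPS and LPS+MIC-1 library. Within the LPS group, library 2 was the lowest for Cd14, Tlr2 and Myd88. It was also the lowest for S100a9, Retnlg, Mmp8 and Ngp (54.5, 6.62 and 49.7 FPKM), but not for S100a8 (228, 269 and 286 FPKM) or Cxcr2. Within the LPS+MIC-1 group, library 2 was the highest for Cd14 and Myd88 but not for Tlr2. It was also the highest there for S100a8, S100a9, Retnlg, Mmp8, Cxcr2 and Ngp (9.46, 19.9 and 8.98 FPKM), but not for Csf3r. The 7 measured neutrophil genes summed to 36.5 to 52.0 FPKM in Control, 349 to 440.0 in LPS and 189 to 453 in LPS+MIC-1 livers. S100a8 (2.13 to 7.98 FPKM in Control, 228 to 286 in LPS and 141 to 339 in LPS+MIC-1), S100a9, Retnlg, Mmp8 and Ngp were all higher in every LPS and LPS+MIC-1 library, whereas Cxcr2 was lower and Csf3r stayed at or below 0.49 FPKM. Kupffer cell markers went in several directions. Clec4f was at 13.0 to 30.1 FPKM in Control, 2.85 to 6.32 in LPS and 4.33 to 4.83 in LPS+MIC-1 livers, and Marco was at 2.18 to 6.79, 23.1 to 40.4 and 38.4 to 75.6 FPKM. The 5 Kupffer cell genes summed to 29.2 to 51.0, 36.9 to 53.9 and 50.9 to 96.1 FPKM in these groups. None of the neutrophil or Kupffer cell markers was at 0 in all liver libraries, and their part in the results was not tested.

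Beside the members, 57 further genes of the pathway were counted: 19 receptors and helpers, 24 kinases, ligases and adaptors, and 14 inhibitors. In macrophages 47 of them passed the filter. With all 9 libraries, 0 of 47 were called in LPS against Control, 6 were higher and 6 lower in LPS+MIC-1 against LPS (25.5%, beside 21.6% of all genes), and 10 were higher and 4 lower in LPS+MIC-1 against Control (29.8%, beside 24.8%). Without LPS library 2 these counts were 17 higher and 19 lower (76.6%, beside 75.2%), 20 higher and 13 lower (70.2%, beside 68.0%), and 17 higher and 15 lower (68.1%, beside 60.3%). The shares of the list were thus near those of all genes. Inhibitors made up 6 of the 10 that were higher in LPS+MIC-1 against Control, out of 13 inhibitors tested (46.2% called), and 0 inhibitors were lower, where 11.8% of all genes were higher and 13.0% lower. Without LPS library 2, 8 of the 13 inhibitors were higher and 3 lower there, where 28.1% of all genes were higher and 32.2% lower. The inhibitor list was chosen with earlier results of these data known and its counts are a description.

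Among these genes in macrophages, Zc3h12a, an RNase that degrades cytokine messages, rose in LPS+MIC-1 against LPS by 1.27 ± 0.33 (log2, adjusted p = 0.0329, limma) and against Control by 2.50 ± 0.33 (adjusted p = 0.00229). Il1rl1 rose by 0.97 ± 0.16 (adjusted p = 0.00623) and Tlr13, a receptor for bacterial RNA, by 2.24 ± 0.57 (adjusted p = 0.0303) in LPS+MIC-1 against LPS. Like Tlr4, Tlr13 was lowest in LPS libraries 1 and 3, at 18.9, 19.1 and 19.3 FPKM in Control, 3.22, 19.5 and 3.32 FPKM in LPS and 28.8, 34.0 and 29.2 FPKM in LPS+MIC-1. Ly86 (MD-1), a relative of Ly96 that pairs with another receptor, fell in LPS+MIC-1 against LPS by 1.84 on the log2 scale (SE 0.14, adjusted p = 0.000509, limma) and against Control by 2.13 (SE 0.14, adjusted p = 0.000237). It stood at 187, 166 and 193 FPKM in Control, 138, 175 and 136 FPKM in LPS and 38.2, 46.0 and 39.4 FPKM in LPS+MIC-1, so that it was lowest in all LPS+MIC-1 libraries where Ly96 was not. The interferon regulator Irf7 (a log2 fold change of -1.94 ± 0.46, adjusted p = 0.0231) and the kinase Map3k8 (-0.96 ± 0.28, adjusted p = 0.0468) were also lower in LPS+MIC-1 against LPS. All of these kept their call without LPS library 2, where Tlr13 was at 3.05 ± 0.09 and Zc3h12a at 0.88 ± 0.21 in LPS+MIC-1 against LPS.

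Against Control, LPS+MIC-1 macrophages also had more Itgam, a subunit of complement receptor 3 (2.26 ± 0.32, adjusted p = 0.00303, limma), and more Tnip1, an NF-κB inhibitor (1.76 ± 0.42, adjusted p = 0.0204), and less Tlr9 (-0.66 ± 0.15, adjusted p = 0.0174) and Tab1 (-0.53 ± 0.12, adjusted p = 0.0196). These 4 were also called without LPS library 2. In LPS against Control, where no gene was called with 9 libraries (adjusted p = 0.0777 for each of the following), the largest changes without LPS library 2 were those of Itgb2 (2.37 ± 0.17), Tnfaip3 (2.18 ± 0.20) and Tnip1 (2.13 ± 0.21) among the higher genes and Tlr13 (-2.38 ± 0.09), Irf3 (-2.22 ± 0.11) and Tlr7 (-1.98 ± 0.11) among the lower ones. Tnfaip3 (A20) and Tnip1 act together as a brake on NF-κB, and Irf3 is the transcription factor downstream of Ticam1. Irf3 stood at 21.1, 20.7 and 20.8 FPKM in Control and 3.51, 19.3 and 4.72 FPKM in LPS macrophages, so it was low in the same libraries in which Ticam1 was high.

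In liver 41 of the 57 pathway genes passed the filter. In LPS against Control 14 were higher and 2 lower (39.0%, beside 34.7% of all genes, 19.2% higher and 15.5% lower). In LPS+MIC-1 against Control 12 were higher and 4 lower (39.0%, beside 36.4% of all genes, 20.1% higher and 16.3% lower). Between LPS+MIC-1 and LPS 0 of 41 were called, or 3 lower without both libraries 2. Of the receptors and helpers, 6 of 11 were higher in LPS against Control, and of the inhibitors 5 of 9, beside the same 19.2% of all genes. In LPS+MIC-1 against Control these were 6 of 11 and 3 of 9, beside 20.1%. The inhibitors counted include Tnfaip3, which passed the filter only through the groups in which it was high, so these shares are only a description. Lbp, the serum protein that brings LPS to Cd14, rose by 2.73 ± 0.31 (log2, adjusted p = 0.00112, limma) in LPS against Control, from 29.9, 24.6 and 15.4 FPKM to 187, 105 and 178 FPKM, and by 2.89 ± 0.31 (adjusted p = 0.000943) in LPS+MIC-1 against Control. Tnfaip3, which was at 0.29 to 0.47 FPKM in Control and passed the filter only through the other groups, rose by 2.83 ± 0.63 (adjusted p = 0.0121) and Irf7 by 2.07 ± 0.26 (adjusted p = 0.00182) in LPS against Control. Ly86 (-0.84 ± 0.26, adjusted p = 0.036) and the ligase Peli1 (-0.80 ± 0.25, adjusted p = 0.0389) were lower there, and lower again in LPS+MIC-1 against Control, as was Irf5 (-0.92 ± 0.19, adjusted p = 0.00848). LPS+MIC-1 livers had more Irf7 (2.12 ± 0.26, adjusted p = 0.00158) and more Itgam (1.53 ± 0.20, adjusted p = 0.00177) than Control.

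Genes with a pattern close to a member were sought by Pearson's r of log2(FPKM + 0.5) over the 9 libraries of a table, as a description, since the libraries share their groups and LPS library 2. In macrophages the closest to Tlr4 were Capn10, Arhgef7 and Gas2l1 (r at least 0.997), with 423 genes above 0.95. The closest to Cd14 were Ulk3, Polm and Tbk1 (r at least 0.990), of which Tbk1 encodes a kinase downstream of Ticam1. The closest to Irak3 were Secisbp2l, Mmp8 and Itpripl2 (r of 0.991, 0.989 and 0.989). In liver the closest to Cd14 were Plin2, a coat protein of lipid droplets, Rbm3 and Inhbe (r at least 0.993). Plin2 ranged from 52.7 to 1338 FPKM across the liver libraries. For Tlr4 and Irak3 in liver, whose levels were low, only 1 gene each had an r above 0.95.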

How the data were processed

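RNA-seq covered 18 libraries, 9 from the RAW264.7 line and 9 from liver. The authors pseudoaligned the reads with kallisto 0.45.0 against mm9 RefSeq transcripts, collapsed the estimates to genes (tximport) and deposited, from DESeq2 1.20.0, FPKM values (fragments per kilobase and per 1e6 fragments) that are scaled between libraries. Versions are from the submitters' processing notes. The deposited mean normalized count over 9 libraries, another value of the authors, was used only for depth. The deposited fold changes and p-values of the authors' comparisons were not used. Column names gave the group of each column but no replicate number.

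Genes with a mean above 1 FPKM were tested on log2(FPKM + 0.5) with limma 3.58.1 in R 4.3.3 (1 fit of 9 libraries per table, eBayes with trend, Benjamini-Hochberg adjustment over all genes tested, called below 0.05). Fold changes are on this scale, and the 0.5 understates the changes of low genes. Read totals per library are not analysed here, so library depth is unknown. Numbers after ± are SD beside FPKM and SE beside log2 fold changes. Alternatives were other pseudocounts, filters, scalings, samples in the fit, eBayes settings and thresholds, and each library left out. The fit was tested on simulated data. The members and gene lists were chosen with earlier results of these data known. Besides the 10 members, the text names up to 3 pathway genes per direction and comparison with the largest log2 fold change among those called, and the 3 genes most like Tlr4, Cd14 and Irak3. Marker genes Cd68 and Ly6g are not analysed here. Tables and plots were made in Python 3.11.15 (pandas 2.3.3 and numpy 2.4.6, with matplotlib 3.10.9 for drawing).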

Additional observations from a re-analysis of the deposited data

Results flagged for a closer look

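Tlr2 and Myd88 moved in opposite directions in the cells and in the liver, with no overlap of LPS or LPS+MIC-1 with Control in either table. Ranges did not overlap for 33.3% of macrophage and 45.0% of liver genes in LPS against Control. In LPS+MIC-1 against Control this held for 66.4% and 54.6%. The gap was narrow in macrophages, where LPS library 2 and the lowest Control library were at 54.2 and 55.5 FPKM for Tlr2 and 75.9 and 76.2 FPKM for Myd88. In LPS against Control, the log2 fold change of Tlr2 was -1.32 in macrophages and 2.49 in liver, and that of Myd88 was -0.78 in macrophages and 1.57 in liver. In LPS+MIC-1 against Control, Tlr2 was at -0.53 in macrophages and 2.28 in liver, and Myd88 at -0.71 in macrophages and 1.33 in liver. Irak2 was higher in macrophages (1.45) and lower in liver (-0.65) in LPS+MIC-1 against Control. The macrophage log2 fold changes of this paragraph did not pass with all 9 libraries, and those comparisons passed without LPS library 2 (limma). The difference between cells and liver was not tested, since the tables were normalized separately, and the treatments differ in dose and route.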

How the results depend on the processing

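Counts of called genes in macrophages depended on the libraries used, and those in liver less so. No paired analysis was possible because the columns carry no replicate numbers. Leaving out each library in turn, the members called ranged from 0 to 10 in macrophages for LPS against Control, 1 to 9 for LPS+MIC-1 against LPS and 1 to 9 for LPS+MIC-1 against Control, and the pathway genes from 0 to 36, 3 to 33 and 3 to 32. Each highest count came without LPS library 2. In liver these ranges were 4 to 5, 0 to 0 and 4 to 6 members and 7 to 24, 0 to 1 and 9 to 20 pathway genes. With macrophage libraries 1 and 3 only, a setting added after seeing the data, 10, 10 and 9 members and 40, 38 and 33 pathway genes were called, and with these averaged as 1 sample 0 members and 0 pathway genes.

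Further alternatives changed counts in macrophages. For LPS+MIC-1 against LPS, 1 member was called without the filter, 1 in a fit of only the groups compared (2 pathway genes) and 1 at the study's thresholds (1 pathway gene). For LPS+MIC-1 against Control, 9 members and 29 pathway genes were called in a fit of only the groups compared, 1 member and 3 pathway genes at the study's thresholds, and 6 pathway genes with the same-sum scaling. In liver, a filter at 5 FPKM left 10 pathway genes called in LPS against Control and 10 in LPS+MIC-1 against Control, and the study's thresholds left 7 in the latter. Without both libraries 2, 1 member and 3 pathway genes were called in LPS+MIC-1 against LPS.

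Most values kept their direction, with the exceptions given here. With the same-sum scaling, the macrophage log2 fold changes in LPS against Control were -0.43 for Cd14 and -0.34 for Ticam2, and that in LPS+MIC-1 against Control was -0.14 for Tirap. For LPS+MIC-1 against LPS, Ly96 in macrophages was -0.51 with libraries 1 and 3 only and -0.47 to 0.33 over the libraries left out, and Myd88 was -0.073 with libraries 1 and 3 averaged and -0.088 to 0.38 over the libraries left out. In liver, that comparison ranged from -0.40 to 0.028 for Ly96 and from -0.45 to 0.0093 for Tirap over the libraries left out. Outside the libraries left out, 524 of the members' values kept direction and call, 34 gained a call, 22 lost it and 5 changed sign. The cause was not tested. FPKM holds no read depth, and liver Tlr4, Ticam2 and Irak3 are near the lower limit of what these tables resolve.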
